A study of Brassica juncea with 18 samples.

Results

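Lipid transfer proteins and aquaporins are described side by side in siliques of *B. juncea*, over 6 stages of development and 3 durations of cold. The members were the transcripts of the expression table whose best hit in the authors' annotation named a lipid transfer protein, an LTP with a number, an aquaporin, or a plasma membrane or tonoplast intrinsic protein. The rule used names alone and no measured value. It gave 44 of 13342 transcripts, of which 25 transcripts from 23 unigenes were lipid transfer proteins and 19 transcripts from 16 unigenes were aquaporins.

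The plants were *B. juncea* of the Varuna variety, grown in the field and pollinated by hand with their own pollen. Branches with siliques of 6 ages, 5 days apart and between 5 and 30 days after pollination (DAP), were cut and stood in water. Branches for cold treatment spent 6 h or 12 h at 4 °C with the light on, and control branches, which for all ages were harvested on 1 day, were left in the field. RNA of whole siliques was sequenced in 18 libraries, 1 per stage for control, 6 h and 12 h. No source used here gives the time of day at harvest, so that cold and time of day cannot be told apart for any transcript. A whole silique holds pod wall and seeds together, so that fewer cells of a type and less RNA per cell cannot be told apart either.

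Lipid transfer proteins are small secreted proteins, held in shape by conserved cysteines, that carry fatty acids and other lipids in a hydrophobic cavity. They have been linked to the delivery of wax and cutin to the surface and to defence, and they belong to the same superfamily as the 2S albumins stored in seeds. Aquaporins are channels of the MIP family that let water and, in some classes, small neutral solutes cross membranes. PIP aquaporins sit in the plasma membrane, TIP aquaporins in the tonoplast around the vacuole, and the NIP class also carries boric acid and glycerol.

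The values were FPKM (fragment counts divided by transcript length and library size, then normalized between libraries by TMM), which are levels per transcript length. Summed over the 13342 transcripts, they ran between 71973 and 188212 FPKM per library, with no pair of identical libraries. The read counts behind these values were not used here, so that the counting error of low values is unknown. The table holds only transcripts that had already been called between some pair of the same libraries, and each share below is a share of that selected table. A change is given as a difference of log2(FPKM + 1) with its standard error, which understates the change of transcripts near or below 1 FPKM. Stages served as the replicates of cold in limma, and p-values were adjusted over all 13342 transcripts by the Benjamini-Hochberg method with a threshold of 0.05. These p-values rest on the spread among single libraries, which may be technical in part.

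Of the 25 lipid transfer protein transcripts, 20 matched the broad superfamily of protease inhibitors, seed storage proteins and lipid transfer proteins, and 5 transcripts from 3 unigenes matched a protein named as a lipid transfer protein alone. The aquaporins comprised 11 PIP transcripts, 4 NIP, 2 TIP and 2 with no class in the name. In the assembly the same rule found 59 lipid transfer protein and 41 aquaporin transcripts. The expression table holds 42.4% and 46.3% of these families, beside 12.4% of the 90223 transcripts of the assembly with a best hit and 9.98% of all 133641. A conserved-cysteine domain was annotated in 16 of the 25 lipid transfer protein transcripts, and a MIP domain in 6 of the 19 aquaporins. No domain was annotated in 8 lipid transfer protein transcripts or in the remaining 13 aquaporins. Another domain alone was annotated in 1 lipid transfer protein transcript. Lipid transfer protein transcripts were 218 to 1146 bases long with a median of 599, and aquaporin transcripts 275 to 1057 bases with a median of 452. The median over the table was 834 bases. Some members may be fragments of genes, but a length below that median does not show it for small proteins.

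Levels spread widely within each family. Mean levels over the 18 libraries ran between 0.614 and 213 FPKM for lipid transfer proteins (median 2.96) and between 0.186 and 29.7 FPKM for aquaporins (median 4.93). The median over all transcripts was 1.83 FPKM. A few members made up most of each family's total. The lipid transfer proteins c51461_g1_i1, c60014_g1_i2, c62443_g2_i1 and c53597_g1_i1 held 70.9% to 85.6% of the summed FPKM of their family in a library. The aquaporins c58653_g1_i1, c48278_g1_i1, c72163_g2_i1 and c72163_g2_i2 held 35.0% to 83.1% of theirs.

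In control siliques both families had members at either end of development and few in the middle. Of the lipid transfer proteins, 12 were highest at 5 DAP, 4 at 10 DAP, 2 at 15 DAP, none at 20 DAP, 2 at 25 DAP and 5 at 30 DAP. Of the aquaporins, 7 were highest at 5 DAP, 1 each at 15 and 20 DAP, 3 at 25 DAP and 7 at 30 DAP. Over the 13270 transcripts detected in a control library, 24.6% were highest at 5 DAP and 29.9% at 30 DAP.

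**Figure D1:**
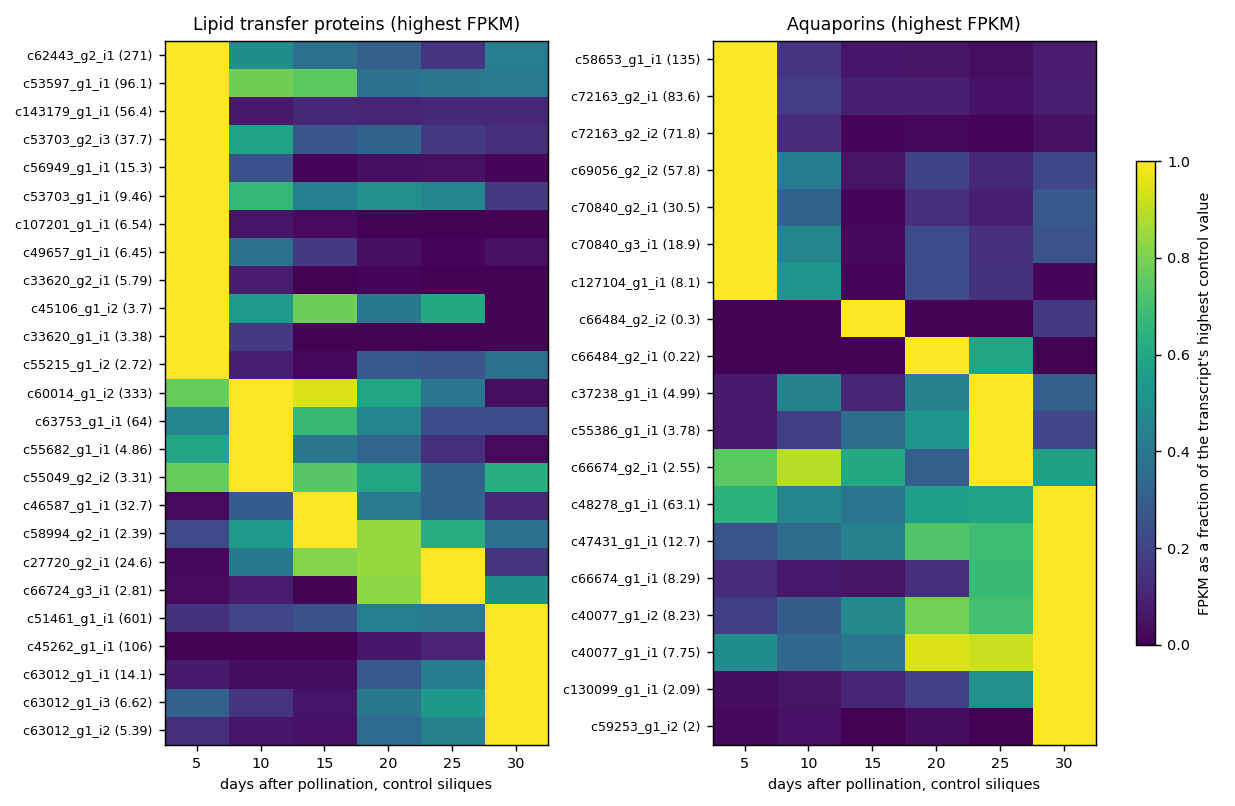
Heat maps of FPKM in control siliques at each stage, as a fraction of the transcript's highest control value, which is printed in parentheses beside its name. Lipid transfer proteins are on the left and aquaporins on the right, sorted by the stage of the highest value. Most transcripts are brightest at 5 DAP or at 30 DAP, with 12 and 5 of 25 lipid transfer proteins and 7 and 7 of 19 aquaporins.

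The most abundant lipid transfer protein, c51461_g1_i1 of the superfamily, had 88.9, 125, 149, 260.0, 250.1 and 601 FPKM in control siliques at the 6 stages in order of age. Its relative c45262_g1_i1 was almost restricted to late siliques. It had 0.13, 0.34 and 0.09 FPKM in control siliques at 5, 10 and 15 DAP and 6.57, 10.1 and 106 FPKM at 20, 25 and 30 DAP. The reverse course was seen for c107201_g1_i1, which had 6.54 FPKM in control siliques at 5 DAP, 0.37 FPKM at 10 DAP and was listed at 0 from 20 DAP on. The pair c33620_g1_i1 and c33620_g2_i1 had 3.38 and 5.79 FPKM in control siliques at 5 DAP and at most 0.57 FPKM at any later stage. Others were low at both ends. Levels of c46587_g1_i1 in control siliques were 0.86, 9.51, 32.7, 13.3, 10.3 and 3.52 FPKM in order of age, highest at 15 DAP. Those of c27720_g2_i1, with the same best hit, were 0.52, 9.96, 20.0, 20.8, 24.6 and 3.67 FPKM, highest at 25 DAP.

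Late stages (20 to 30 DAP) were compared with early stages (5 to 15 DAP) on the mean of the 3 libraries of each stage. A smaller share of reads passed the quality filter in all libraries of 25 and 30 DAP, and at 5 to 20 DAP in the 12 h libraries alone. This class of the libraries thus overlaps with late stages. It was not a term in this comparison, and its part in the differences was not tested. Of the 25 lipid transfer proteins 1 was called higher in late siliques and none lower, while no aquaporin of 19 was called in either direction by limma. Over all transcripts 3.43% were called higher and 0.277% lower, 3.71% in either direction. At an unadjusted p under 0.05 the lipid transfer proteins had 4 higher and 6 lower, and the aquaporins 7 higher and none lower. Over all 13342 transcripts 2576 were higher and 1160 lower at that threshold. Median late minus early differences were -0.64 for lipid transfer proteins and 0.35 for aquaporins, beside 0.005 over all transcripts. Rescaling the libraries by the median ratio moved this last median by -0.13.

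The called transcript was c63012_g1_i1, a putative lipid transfer protein, with 3.94, 5.93 and 14.1 FPKM in control siliques at 20, 25 and 30 DAP, against 1.01, 0.47 and 0.44 FPKM at 5, 10 and 15 DAP. All 3 late controls were above all 3 early controls. It was higher by 2.0 ± 0.38 on the log2 scale (adjusted p = 0.0457), and the adjusted p was 0.141, 0.215, 0.0695, 0.220 and 0.126 without 5, 10, 15, 25 and 30 DAP. The late differences of c45262_g1_i1 (4.02 ± 1.02, adjusted p = 0.0730) and c51461_g1_i1 (1.46 ± 0.35, adjusted p = 0.0664) did not pass the threshold. Neither did those of the 3 PIP1-5 transcripts c47431_g1_i1, c40077_g1_i1 and c40077_g1_i2, which ranged between 1.20 and 1.43 (adjusted p of 0.0865 to 0.0919). In control siliques c47431_g1_i1 had 9.24, 8.71 and 12.7 FPKM at 20, 25 and 30 DAP, against 3.31, 4.48 and 5.63 FPKM at 5, 10 and 15 DAP. On the other side stood c53597_g1_i1 of the superfamily, lower in late siliques by 1.11 ± 0.30 without passing (adjusted p = 0.0850), and putative lipid transfer protein 5, c63753_g1_i1, at -1.59 ± 0.47 (adjusted p = 0.0970).

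Of the seed genes measured alongside, 8 of 35 embryo and seed storage transcripts were called higher in late siliques, and their summed control level was 1627 FPKM at 30 DAP, against 3.26 FPKM at 5 DAP. Their part in the late levels of the family members was not tested.

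Over the 6 stages, the cold changes that passed the test were all falls among the lipid transfer proteins and ran both ways among the aquaporins. After 6 h, 7 of 25 lipid transfer proteins were lower than in control siliques and none was higher, while 9.21% of all transcripts were called lower and 12.6% higher, 21.8% in either direction. Of the 19 aquaporins, 2 were lower and 1 was higher. After 12 h the same 7 lipid transfer proteins were lower and none was higher, beside 11.2% and 10.2% of all transcripts (21.4% in either direction). A single aquaporin was lower after 12 h and none was higher. At an unadjusted p under 0.05 in limma, 8 lipid transfer proteins were lower and none higher after 6 h, and 9 were lower and none higher after 12 h. For aquaporins these counts were 2 lower and 2 higher after 6 h, and 3 lower and 2 higher after 12 h. Over all 13342 transcripts they were 1944 lower and 2203 higher after 6 h, and 2389 lower and 1909 higher after 12 h. Both comparisons use the same control libraries.

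The middle of each family moved less than its called members. The median change of the lipid transfer proteins was -0.11 after 6 h and -0.24 after 12 h, with 19 and 20 of 25 transcripts below 0. The median of the aquaporins was 0.13 after 6 h and 0.06 after 12 h, with 9 and 8 of 19 below 0. Medians over all transcripts were -0.002 and -0.04, with 50.1% and 56.1% of them below 0. Whether the families differ in their change was not tested, since the members are not replicates.

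**Figure D2:**
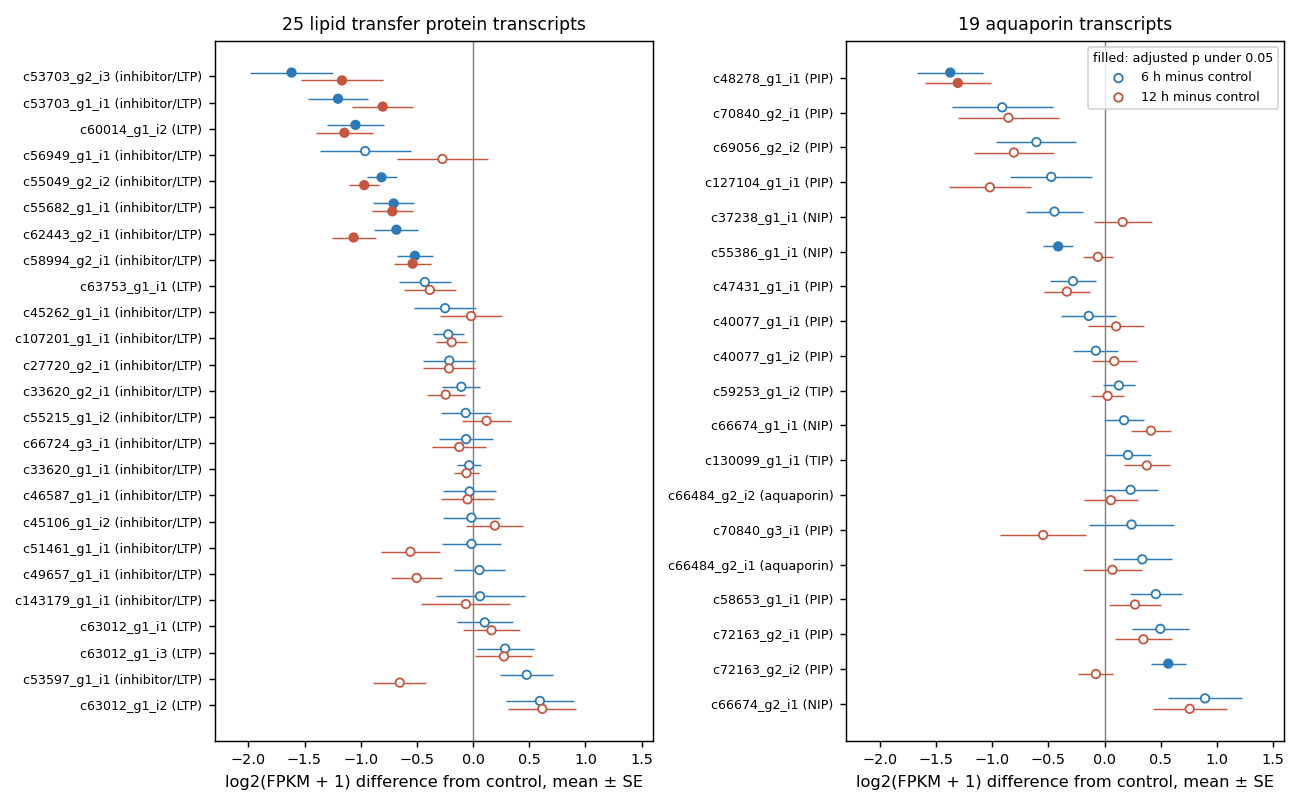
Change of each transcript after 6 h (blue) and 12 h (red) of cold, as the mean difference from control in log2(FPKM + 1) over 6 stages with its standard error. Filled points passed an adjusted p of 0.05, which 7 of 25 lipid transfer proteins did at each duration, all to the left of 0, and 3 of 19 aquaporins did after 6 h and 1 after 12 h.

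The most abundant transcript among those that fell was c60014_g1_i2, named lipid transfer protein, a fragment of 223 bases. From the youngest stage to the oldest it had 255, 333, 315, 197, 131 and 12.5 FPKM in control siliques. After 6 h it had 120.1, 214, 171, 99.4, 50.5 and 4.32 FPKM at these stages, and after 12 h 135, 124, 126, 80.6, 30.6 and 13.7 FPKM. Every stage was below its control after 6 h, and every stage but 30 DAP after 12 h. It fell by 1.05 ± 0.25 on the log2 scale after 6 h (adjusted p = 0.00805) and 1.15 ± 0.25 after 12 h (adjusted p = 0.00487).

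A similar fall from a high level was seen for c62443_g2_i1 of the superfamily. In control siliques it had 271, 135, 99.5, 82.7, 41.7 and 116 FPKM at the stages in order of age. It had 127, 64.8, 47.1, 59.3, 56.6 and 63.9 FPKM after 6 h, and 137, 67.6, 43.6, 33.0, 31.6 and 38.9 FPKM after 12 h. Only the 25 DAP library after 6 h was above its control. The change was -0.68 ± 0.20 after 6 h (adjusted p = 0.0217) and -1.06 ± 0.20 after 12 h (adjusted p = 0.0014).

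The largest falls of lipid transfer proteins after 6 h, on the log2 scale, belonged to a pair of unigenes with the same best hit, a 2S albumin-like member of the superfamily. In control siliques c53703_g2_i3 had 37.7, 21.8, 10.1, 12.2, 6.43 and 5.15 FPKM, declining with age. After 6 h it had 9.05, 1.03, 4.15, 5.03, 5.53 and 0.72 FPKM, and after 12 h 11.9, 8.64, 7.21, 8.81, 1.34 and 0.96 FPKM. All 12 cold-treated libraries were below the control of their stage. It fell by 1.62 ± 0.37 after 6 h (adjusted p = 0.00552) and 1.17 ± 0.37 after 12 h (adjusted p = 0.0363). Its partner c53703_g1_i1 fell by 1.20 ± 0.27 after 6 h (adjusted p = 0.0052), with levels of 0.17 to 4.18 FPKM (median 1.34) after 6 h, 0.58 to 6.46 FPKM (median 1.99) after 12 h and 1.62 to 9.46 FPKM (median 4.53) in control siliques. Across the 18 libraries the levels of the pair had a Spearman correlation of 0.91, as a description of libraries that differ in stage and cold.

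The other called lipid transfer proteins were of low abundance. The superfamily transcript c55049_g2_i2 had 2.54, 3.31, 2.45, 1.95, 1.07 and 2.08 FPKM in control siliques. It had 1.17, 1.35, 0.85, 0.60, 0.73 and 0.28 FPKM after 6 h and 0.70, 1.09, 0.88, 0.77, 0.22 and 0.22 FPKM after 12 h. Each cold-treated library was below the control of its stage, and it fell by 0.81 ± 0.13 after 6 h (adjusted p = 0.000544) and 0.97 ± 0.13 after 12 h (adjusted p = 0.000153). This transcript had the smallest adjusted p of the family at both durations. Levels of c55682_g1_i1 were at most 1.24 FPKM after 6 h and 1.25 FPKM after 12 h, against up to 4.86 FPKM in control siliques, with a change of -0.71 ± 0.18 after 6 h (adjusted p = 0.0121). The change of c58994_g2_i1 was -0.52 ± 0.16 after 6 h (adjusted p = 0.0361), at medians of 0.395 FPKM after 6 h and 1.41 FPKM in control siliques.

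**Figure D3:**
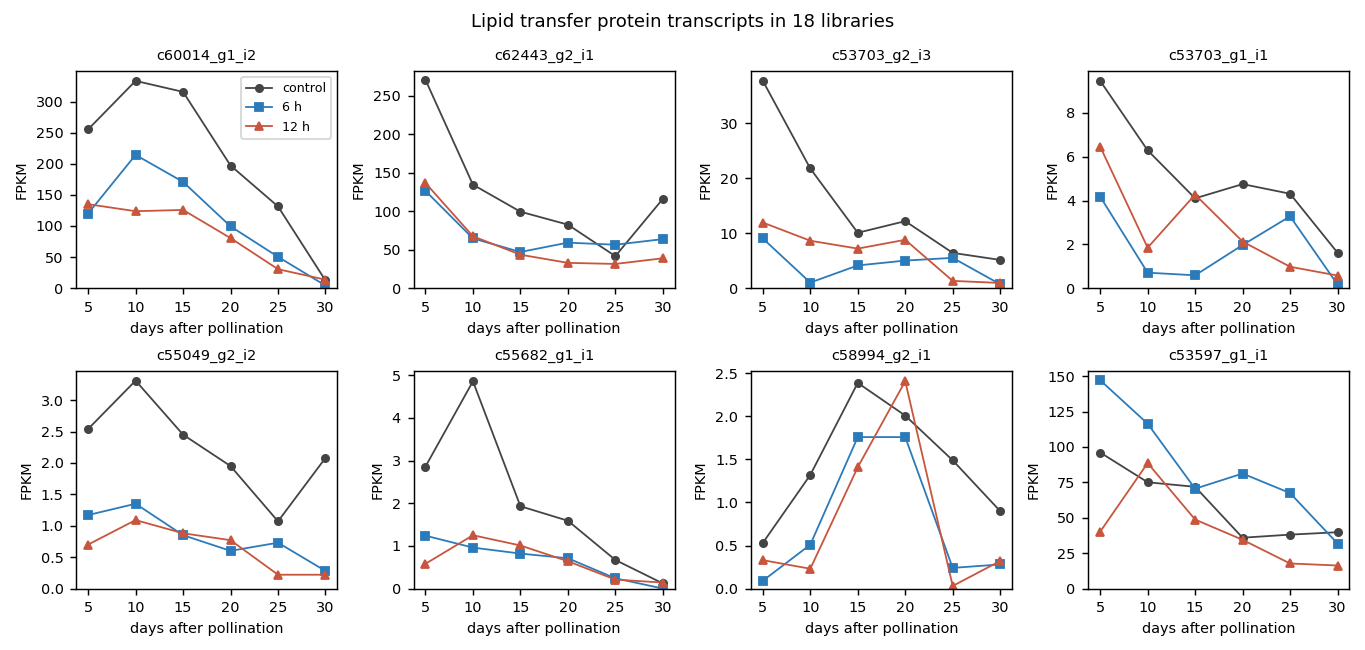
FPKM of 8 lipid transfer protein transcripts (vertical axis, starting at 0) against days after pollination for control siliques and for cold of 6 h and 12 h, with 1 library per point. In the first 7 panels nearly every cold-treated point lies under its control. In the last panel c53597_g1_i1 reaches 147 FPKM after 6 h and 40.1 FPKM after 12 h at 5 DAP, where the control had 96.1 FPKM.

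Several of these calls depended on a stage or on the read class of the library. Leaving out a stage ended the 6 h call of c55682_g1_i1 without 10 DAP (adjusted p = 0.0608) and that of c62443_g2_i1 without 5, 10, 15 or 30 DAP (0.0773, 0.0974, 0.1003 and 0.0638). A pseudocount of 0.1 also ended the 6 h call of c62443_g2_i1 (0.0744). The 6 h call of c58994_g2_i1 was lost without 5, 10, 15, 25 or 30 DAP (0.0581, 0.108, 0.0737, 0.0792 and 0.0927). By the share of reads that passed the quality filter, 8 libraries, the control and 6 h libraries of 5 to 20 DAP, fall in a high class and the other 10 in a low class. At 5 to 20 DAP the 12 h change and this class cannot be told apart, and with the class as a term 3 of the 7 lipid transfer proteins stayed called after 12 h, c55049_g2_i2 (-1.08, adjusted p = 0.00785), c62443_g2_i1 (-1.21, adjusted p = 0.0322) and c53703_g2_i3 (-1.96, adjusted p = 0.0363). The change of c60014_g1_i2 was then -0.82 (adjusted p = 0.252) and that of c55682_g1_i1 -0.43 (adjusted p = 0.430). Those of c53703_g1_i1 (-1.31 ± 0.40, adjusted p = 0.0650) and c58994_g2_i1 (-0.76 ± 0.25, adjusted p = 0.0857) did not pass either. Without the term these 2 changes and their standard errors were smaller, -0.80 ± 0.27 and -0.54 ± 0.16. After 12 h the call of c53703_g2_i3 was also lost without 5, 15, 20 or 30 DAP (0.133, 0.0603, 0.0541 and 0.127), that of c58994_g2_i1 without 10, 15, 25 or 30 DAP (0.132, 0.0847, 0.0955 and 0.0763), and that of c53703_g1_i1 without any stage but 15 DAP (0.0561 to 0.152). Median ratio scaling ended the 12 h calls of c53703_g2_i3 (0.0562) and c53703_g1_i1 (0.0678).

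Some lipid transfer proteins did not share this fall. The abundant c53597_g1_i1 had 147, 116, 70.5, 81.2, 67.4 and 31.8 FPKM after 6 h, against 96.1, 75.1, 71.8, 35.9, 38.1 and 39.8 FPKM in control siliques. After 12 h it had 40.1, 88.6, 48.7, 34.4, 17.7 and 16.3 FPKM. Neither change from control passed (0.48 ± 0.23, adjusted p = 0.188 after 6 h, and -0.65 ± 0.23, adjusted p = 0.0649 after 12 h). Between the durations it was lower after 12 h than after 6 h by 1.13 ± 0.23 (adjusted p = 0.0126), and lower at each of the 6 stages. It was the only member of its family called between the durations, where 3.62% of all transcripts were called lower and 1.29% higher (4.91% in all), and the call was lost without 5 or 25 DAP (adjusted p of 0.0674 and 0.0592) and with the class term (0.0639).

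The most abundant member, c51461_g1_i1, had 178, 118, 156, 190.0, 301 and 327 FPKM after 6 h and 69.5, 42.5, 100.1, 165, 368 and 349 FPKM after 12 h. Its changes were -0.01 ± 0.26 and -0.56 ± 0.26 (adjusted p = 0.978 and 0.157). The ranges of the 3 durations overlapped, and the 12 h library was below its control at 5 of 6 stages. The isoform c63012_g1_i2 of the putative lipid transfer protein was above its control at all 6 stages after 6 h, as were 13.1% of all transcripts, without passing the test. It had 5.72 FPKM after 6 h at 5 DAP, against 0.75 FPKM in control siliques, and 5.44 against 5.39 FPKM at 30 DAP.

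Among the aquaporins matched by name, the plasma membrane aquaporin PAQ1, c48278_g1_i1, fell the most. From the youngest stage to the oldest it had 40.5, 28.7, 24.7, 35.1, 36.8 and 63.1 FPKM in control siliques. It had 22.7, 5.86, 10.4, 12.0, 20.5 and 16.7 FPKM after 6 h and 6.14, 7.45, 15.1, 12.9, 35.7 and 23.6 FPKM after 12 h. All 6 libraries after 6 h were below all 6 control libraries, and after 12 h only the 25 DAP library lay within their range. It was the only aquaporin below its control at 6 of 6 stages, and was so at each duration, beside 9.79% of all transcripts after 6 h and 10.3% after 12 h, while 7 and 3 lipid transfer proteins were. It fell by 1.37 ± 0.29 on the log2 scale after 6 h (adjusted p = 0.00376) and 1.31 ± 0.29 after 12 h (adjusted p = 0.00574). The 6 h call held in the 12 alternative settings run on it. With the read class as a term the 12 h change was -0.73 (adjusted p = 0.373). At 25 and 30 DAP, where control and 12 h libraries share a class, it had 35.7 and 23.6 FPKM after 12 h, against 36.8 and 63.1 FPKM in control siliques. Outside the naming rule, the delta-VM23 transcripts fell by 1.11 to 1.29 after 6 h and by 1.58 to 1.78 after 12 h.

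The PIP2-5 transcripts followed another course. PIP2 proteins are the more efficient water channels of the plasma membrane class. The most abundant, c58653_g1_i1, had 135, 20.8, 7.60, 7.28, 5.11 and 11.01 FPKM in control siliques, so that the 5 DAP silique stood far above all later ones. After 6 h it had 77.7, 35.2, 15.5, 11.7, 8.09 and 18.0 FPKM, and after 12 h 117, 17.9, 10.3, 6.99, 12.0 and 17.2 FPKM. After 6 h it was below its control at 5 DAP and above it at the other 5 stages, and the mean change did not pass (0.46 ± 0.23, adjusted p = 0.203). The same order held for c72163_g2_i1, a partial PIP2-5, with 51.2 FPKM after 6 h against 83.6 FPKM in control siliques at 5 DAP, and 29.4 against 14.7 FPKM at 10 DAP.

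Its isoform c72163_g2_i2 was the only aquaporin called higher, after 6 h. It had 67.6, 13.9, 3.17, 1.80, 2.0 and 6.85 FPKM after 6 h, against 71.8, 8.62, 1.03, 1.52, 0.74 and 3.26 FPKM in control siliques, and 60.3, 6.78, 1.30, 0.80, 1.0 and 3.87 FPKM after 12 h. The rise was 0.57 ± 0.15 after 6 h (adjusted p = 0.0166), and the change after 12 h was -0.08 ± 0.15 (adjusted p = 0.804). It was lower after 12 h than after 6 h by 0.64 ± 0.15 (adjusted p = 0.0288), the only aquaporin called between the durations. The 6 h call was lost without 10, 15, 25 or 30 DAP (adjusted p of 0.0608, 0.0928, 0.0537 and 0.0658) and under median ratio scaling (0.0618), and the call between durations in 9 of 12 settings, among them without 10, 15, 20, 25 or 30 DAP (0.136, 0.123, 0.0705, 0.0646 and 0.0778). How reads were divided between the isoforms of this unigene is uncertain.

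**Figure D4:**
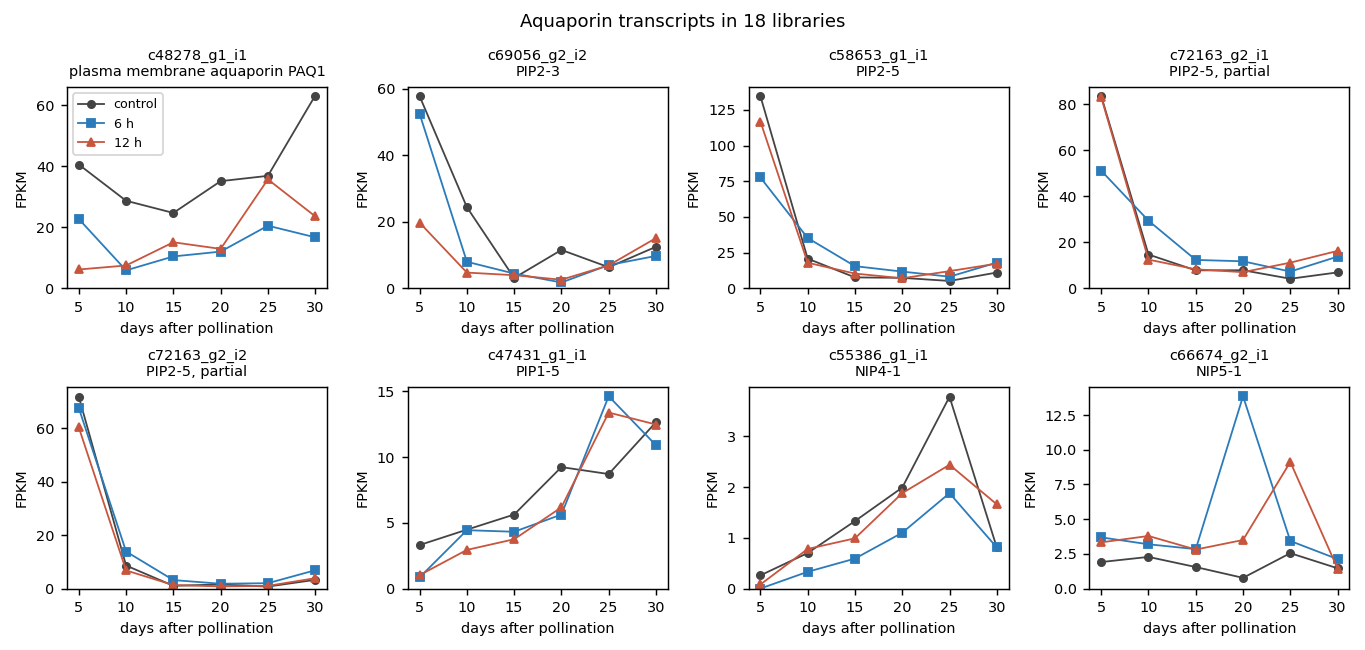
FPKM of 8 aquaporin transcripts (vertical axis, starting at 0) against days after pollination for control siliques and for cold of 6 h and 12 h, with 1 library per point. PAQ1 lies under its control at each stage, while the 3 PIP2-5 transcripts are highest at 5 DAP, with 135, 83.6 and 71.8 FPKM in control siliques.

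Of the other plasma membrane aquaporins, PIP2-3 (c69056_g2_i2) had 52.5, 7.96, 4.41, 1.73, 6.97 and 9.72 FPKM after 6 h and 19.7, 4.71, 3.92, 2.56, 6.88 and 15.1 FPKM after 12 h. Control siliques had 57.8, 24.4, 3.09, 11.5, 6.32 and 12.5 FPKM. The levels after cold of either duration were below control at 5, 10 and 20 DAP and above it at 15 and 25 DAP, and neither change passed (-0.61 ± 0.36 and -0.81 ± 0.36, adjusted p = 0.287 and 0.133). The PIP2b transcripts c70840_g2_i1 and c127104_g1_i1 had changes of -0.91 ± 0.45 and -0.47 ± 0.36 after 6 h, and c70840_g3_i1, also a 2b protein by name, had one of 0.24 ± 0.38. After 12 h the changes of these transcripts, in the same order, were -0.86 ± 0.45, -1.02 ± 0.36 (adjusted p = 0.0637) and -0.55 ± 0.38. None of them passed. The 3 PIP1-5 transcripts had changes of -0.34 to 0.10 over both durations. At 25 DAP c47431_g1_i1 had 14.6 FPKM after 6 h and 13.4 FPKM after 12 h, against 8.71 FPKM in control siliques, while at 5 DAP it had 0.85 and 1.02 FPKM, against 3.31 FPKM.

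The NIP class gave 1 of the calls. NIP4-1, c55386_g1_i1, had 0.33, 0.59, 1.10, 1.88 and 0.81 FPKM after 6 h at 10 to 30 DAP and was listed at 0 at 5 DAP. Control siliques had 0.26, 0.70, 1.33, 1.99, 3.78 and 0.81 FPKM from 5 to 30 DAP. It fell by 0.41 ± 0.13 after 6 h (adjusted p = 0.0392), a call lost without 10, 15, 20 or 25 DAP (0.105, 0.138, 0.115 and 0.0989). In Arabidopsis genes of the NIP4 type are known from pollen. The mean change after 12 h was -0.06 ± 0.13 (adjusted p = 0.829).

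NIP5-1 is known in Arabidopsis as a channel for boric acid, and 2 unigenes matched it. Levels of c66674_g2_i1 were 3.69, 3.19, 2.84, 13.9, 3.43 and 2.12 FPKM after 6 h, against 1.91, 2.28, 1.55, 0.77, 2.55 and 1.46 FPKM in control siliques. It was above its control at all 6 stages after 6 h, the only aquaporin of which this was so (13.1% of all transcripts were), with a change of 0.89 ± 0.33 that did not pass (adjusted p = 0.0708). The other, c66674_g1_i1, had changes of 0.17 and 0.41 that did not pass and was highest late, with 8.29 FPKM in control siliques at 30 DAP against 0.45 FPKM at 15 DAP. The Spearman correlation of these unigenes over the 18 libraries was -0.01. The 2 transcripts with a TIP name were low except in late siliques. The tonoplast intrinsic protein c130099_g1_i1 had 5.00 FPKM after 6 h and 5.01 FPKM after 12 h, against 2.09 FPKM in control siliques, at 30 DAP, and the beta-TIP c59253_g1_i2, of a type that marks protein storage vacuoles in seeds, had 1.04 and 1.19 FPKM, against 2.0 FPKM. Both unclassed isoforms of c66484_g2 stayed at or below 0.45 FPKM except in the 20 DAP library after 6 h, with 3.86 and 2.27 FPKM.

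By stage, the lowest median change of the lipid transfer proteins was that of the 5 DAP library after 12 h. It was -0.82 over the 25 transcripts, with 20 of 25 below control, beside -0.04 over all transcripts, with 53.2% below control. The medians after 12 h were -0.36 at 10 DAP, -0.009 at 15 DAP, -0.14 at 20 DAP, -0.39 at 25 DAP and 0 at 30 DAP. After 6 h they ran between -0.31 at 10 DAP and -0.07 at 15 DAP and were below 0 at every stage. The aquaporin medians were -0.14 after 6 h and -0.20 after 12 h at 5 DAP, and 0.12 and 0.53 at 25 DAP.

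**Figure D5:**
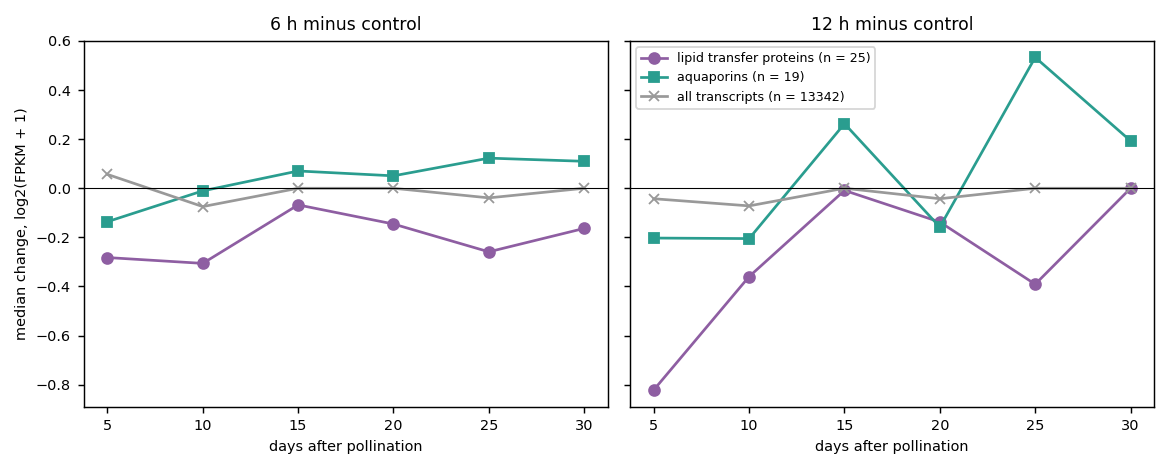
Median change over the transcripts of each family and over all 13342 transcripts, in log2(FPKM + 1), at each stage after 6 h (left) and after 12 h (right) of cold. Lipid transfer proteins are at or below 0 at all stages, with the lowest median of -0.82 after 12 h at 5 DAP, and aquaporins reach 0.53 after 12 h at 25 DAP.

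For early and for late stages, 6 h and 12 h were pooled as cold, with each library entered separately against the control of its stage. At early stages 5 lipid transfer proteins were lower and 1 was higher than control, where 7% of all transcripts were called lower and 8.05% higher. The lower ones were c55049_g2_i2, c55682_g1_i1, c62443_g2_i1, c53703_g2_i3 and c60014_g1_i2, and the higher one was c63012_g1_i2 (1.08, adjusted p = 0.0401). At late stages 2 were lower, c55049_g2_i2 and c60014_g1_i2, and none was higher, beside 5.29% and 5.63% of all transcripts. PAQ1 was the only aquaporin called at early stages (-1.52, adjusted p = 0.0116), and it had -1.16 at late stages (adjusted p = 0.0570). No aquaporin was called at late stages, where 1 was lower and 3 were higher at an unadjusted p under 0.05 in limma. Over all 13342 transcripts 1552 were lower and 1442 higher at that threshold.

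The difference of the cold change between late and early stages was itself tested, and no transcript of either family, or of the table, was called (0% in each direction). At an unadjusted p under 0.05 the limma test gave 4 lipid transfer proteins, no aquaporin and 690 of all transcripts. The unequal counts of early and late stages are therefore not shown to differ. The superfamily transcript c143179_g1_i1 had the largest difference between phases of its family, 1.41 (unadjusted p = 0.0299). At 5 DAP it had 9.25 FPKM after 6 h and 11.6 FPKM after 12 h, against 56.4 FPKM in control siliques, while at 25 DAP it had 19.1 and 8.68 FPKM, against 6.29 FPKM. The other early stages did not share the fall of 5 DAP. At 10 DAP it had 2.98 and 4.23 FPKM, against 3.91 FPKM, and at 15 DAP 8.51 and 8.49 FPKM, against 6.58 FPKM.

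The summed level of the lipid transfer proteins was lower in cold than in control siliques at every stage. After 6 h it was 675, 600.0, 556, 532, 557 and 602 FPKM in order of age, and after 12 h 460.3, 446, 440.5, 416, 531 and 560.4 FPKM. In control siliques it was 899, 805, 765, 688, 560.0 and 943 FPKM. The 12 h sum was also below the 6 h sum at each stage. The median log2 ratio to control over the stages was -0.42 after 6 h and -0.77 after 12 h. At 25 and 30 DAP, where control and cold libraries share a read class, the ratios were -0.01 and -0.65 after 6 h and -0.08 and -0.75 after 12 h.

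The sum of the aquaporins matched by name differed more between stages than between durations. It was 458, 135, 62.2, 103.6, 99.2 and 155 FPKM in control siliques, 357, 117, 64.3, 79.3, 108 and 126 FPKM after 6 h, and 321, 69.0, 61.9, 60.2, 136 and 140.5 FPKM after 12 h. Cold libraries were below control at 5, 10, 20 and 30 DAP, close to it at 15 DAP and above it at 25 DAP. The median log2 ratio was -0.26 after 6 h and -0.33 after 12 h. A sum of FPKM follows its few abundant members, which for the named aquaporins were the PIP2-5 transcripts and PAQ1. The transcripts with a MIP domain outside the naming rule had a median sum of 766 FPKM in control siliques (range 236 to 947). Their median sum was 554 FPKM after 6 h (271 to 722) and 496 FPKM after 12 h (222 to 653).

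Transcripts that carried the domain of a family without its name in the best hit were counted separately. Of 53 such transcripts with a conserved-cysteine domain, which include napin seed storage proteins, 6 were lower and 1 was higher after 6 h (11.3% and 1.89%, beside 9.21% and 12.6% of all transcripts), and 8 were lower and 2 were higher after 12 h (15.1% and 3.77%, beside 11.2% and 10.2%). At each duration 3 of the lower ones were isoforms of the unigene c45495_g1. Of 11 with a MIP domain, 4 were lower and none was higher after 6 h, and 5 were lower and 2 were higher after 12 h. The 4 were isoforms of 1 unigene, delta-VM23, which fell by 1.11 to 1.29 after 6 h and by 1.58 to 1.78 after 12 h. VM23, known from radish as an abundant water channel of the tonoplast, had a mean level of 212 FPKM, above every aquaporin of the named family, and fell by 1.10 ± 0.19 after 12 h (adjusted p = 0.000974). The unigenes c67004_g4 and c67004_g8, with the best hit water channel protein, rose by 1.12 and 1.07 after 12 h.

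Genes for the wax and cutin that lipid transfer proteins are thought to carry, and the proton pumps that energize the membranes of the aquaporins, were also counted. Of 36 transcripts of cuticle synthesis and export, 6 were lower and 1 was higher after 6 h (16.7% and 2.78%, beside 9.21% and 12.6% of all transcripts), and 7 were lower and 1 was higher after 12 h (19.4% and 2.78%, beside 11.2% and 10.2%). Their median changes were -0.11 and -0.17. The lower ones included 3-ketoacyl-CoA synthase 8 of fatty acid elongation (-1.23 after 6 h, -1.30 after 12 h), long chain acyl-CoA synthetase 1 (-0.89 and -1.26) and CYP96A12 (-1.74 and -1.55). CYP86A4, a fatty acid hydroxylase of cutin synthesis, was higher after 6 h (1.20), and fatty acyl-CoA reductase 1 was higher after 12 h (1.18). Of 7 proton pump transcripts none was called by limma at either duration, or had an unadjusted p under 0.05.

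Markers of other parts of the silique were read beside these changes. None of 35 embryo and seed storage and none of 24 pollen and anther transcripts was called by limma after cold at either duration. At an unadjusted p under 0.05 there were 2 embryo and seed storage transcripts after 12 h and none otherwise. Of 7 green tissue transcripts, 1 was higher after 6 h, and 1 was higher and 1 lower after 12 h. Of 14 secondary wall and vessel transcripts, none was called after 6 h (2 at an unadjusted p under 0.05) and 1 was lower after 12 h (6 unadjusted in either direction). Of all transcripts, 9.21% were called lower and 12.6% higher after 6 h, and 11.2% and 10.2% after 12 h. At an unadjusted p under 0.05 in limma, 4147 of all 13342 passed after 6 h and 4298 after 12 h, in either direction. The summed level of the last list had a median of 69.3 FPKM after 6 h (range 23.9 to 339), 79.7 FPKM after 12 h (15.9 to 280) and 148 FPKM in control siliques (43.5 to 302). No list had a marker at 0 in every library, which the selection of the table by earlier calls fixes in advance. The part of these tissues in the changes of the members was not tested.

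Transcripts that shared a best hit were not independent, and in a polyploid such as *B. juncea* near-identical copies can share reads. Over the 18 libraries the 3 PIP1-5 transcripts had Spearman correlations of 0.85 to 0.91, the partial PIP2-5 isoforms 0.87, and the 3 isoforms of c63012_g1 0.71 to 0.83. The superfamily pair c46587_g1_i1 and c27720_g2_i1 reached 0.85, the PIP2b pair 0.64 and the c66484_g2 isoforms 0.35. These values describe libraries that share stage and treatment, and the division of reads between such copies is uncertain.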

How the data were processed

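Reads were quality-filtered by the authors (NGS QC Toolkit), pooled over the libraries for a Trinity assembly, mapped with Bowtie2 and quantified with RSEM. The deposited values are FPKM scaled by TMM, with 2 decimals, for the 13342 transcripts called in pairwise comparisons, and best hits and domains come from the authors' FastAnnotator table. No source used here states the versions of these tools. All 18 columns matched a sample by title.

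FPKM were taken as log2(FPKM + 1) and fitted with limma 3.58.1 (R 4.3.3), with stage as block and duration as effect. Late and early stages were compared on 6 stage means, and the phase difference with cold nested in phase. The scripts were tested on simulated data. Named were up to 4 called members per family, direction and duration, up to 3 per direction late against early, up to 2 between durations, the 4 most abundant, and others chosen after their values were seen. Members and lists were chosen with earlier results of these data known. The read class came from the study's read statistics. Alternatives were a pseudocount of 0.1, a mean of at least 1 FPKM, median ratio scaling, summed isoforms, no stage block, the read class, control libraries only, and each stage left out. Python 3.11.15, pandas 2.3.3, numpy 2.4.6 and matplotlib 3.10.9 were used.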

Additional observations from a re-analysis of the deposited data

Results flagged for a closer look

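The changes from control were checked at each stage for a value far from the other 5 stages, in 48 sets, of which chance alone would give about 5%, and 4 were found. The PIP2-5 transcript c58653_g1_i1 changed by -0.79 on the log2 scale after 6 h at 5 DAP, while the other stages ran between 0.57 and 0.94. The partial PIP2-5 c72163_g2_i1 changed by -0.70 in the same library, against 0.53 to 0.96 at the other stages. The lipid transfer protein c45262_g1_i1 was higher by 1.09 after 12 h at 25 DAP, against -0.45 to 0.11 at the other stages. The summed level of the lipid transfer proteins had a log2 ratio of -0.078 after 12 h to control at 25 DAP, against -0.97 to -0.73 at the other stages.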

How the results depend on the processing

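Counts are of transcripts called by limma. With no stage block, 1 lipid transfer protein was lower after 6 h and 1 after 12 h (7 each with the block), 0 were called between durations, and the aquaporins had 1 lower and 0 higher after 6 h and 0 between durations. With the read class as a term, 3 lipid transfer proteins were lower after 12 h, 1 aquaporin was higher and 0 were lower after 12 h, and 0 of either family were called between durations. Under median ratio scaling 5 lipid transfer proteins were lower after 12 h, 0 aquaporins were higher after 6 h, 0 were called between durations, and 0 lipid transfer proteins were called late against early. With isoforms summed 0 aquaporins were higher and 1 lower after 6 h, 0 were called between durations, and 0 lipid transfer proteins late against early. A pseudocount of 0.1 gave 3 lipid transfer proteins late against early and 0 aquaporins between durations. With a mean of at least 1 FPKM, 1 aquaporin was lower after 6 h and 2 after 12 h. Control libraries alone gave 2 lipid transfer proteins and 1 aquaporin late against early. With each stage left out in turn, 4 to 7 lipid transfer proteins were lower after 6 h (4 without 10 DAP) and 4 to 6 after 12 h (4 without 30 DAP). Aquaporins had 0 to 2 higher (2 without 5 DAP) and 1 to 2 lower after 6 h, 1 to 2 lower after 12 h, and 0 to 1 between durations. Lipid transfer proteins had 0 to 1 between durations and 0 to 6 late against early, and aquaporins 0 to 4 (6 and 4 without 20 DAP). Leaving out the 5 DAP 6 h library, chosen after the data had been seen, gave 5 lipid transfer proteins lower at each duration, 2 aquaporins higher and 3 lower after 6 h, and 0 lipid transfer proteins late against early. The causes were not tested.

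No named transcript changed direction in these settings. Of the 324 alternative values tracked for these transcripts, 42 lost a call and 7 gained one. Many of the 324 belong to comparisons that were not called, which had no call to lose. Some calls given above are not among them, such as that of c53703_g1_i1 after 12 h, lost in 10 of 12 settings. Summing isoforms leaves the family sums as they are. Without its most abundant unigene the summed ratio was -0.41 after 6 h and -0.81 after 12 h for lipid transfer proteins, and -0.40 and -0.52 for aquaporins. With 1 library per stage and duration and no read counts, changes at a single stage have no test, and values near 0 FPKM have unknown counting error.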
